A study of Homo sapiens with 9 samples.

Results

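The 2 mature arms of miR-296, a microRNA encoded beside the imprinted GNAS gene, were followed over 12 h of activation in an established human cell line, Jurkat clone E6-1, which derives from a T cell leukaemia. The members are the rows of the deposited count table whose mature name is hsa-miR-296-3p or hsa-miR-296-5p, which gave 2 of 2883 rows, both from the single precursor hsa-mir-296. Both were among the 701 rows that passed the filter on low counts. The pair was chosen with the fall of the 3p arm at 12 h already known, so the values of miR-296-3p at all times, and those of both arms at 12 h against 0 h, are given as a description, with no p and nothing read from a call on them.

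The 0 h cells were not activated. The 5 h and 12 h cells were activated for that time with plate-bound antibody to CD3 (10 µg/mL), a complex that carries the signal of the T cell receptor, and soluble antibody to CD28 (5 µg/mL), a costimulatory receptor. Each time had 3 biological replicates from 1 cell line, which made 9 small RNA libraries of 6631839 to 16207031 counts. Unactivated cells were collected at 0 h alone, so activation and time in culture cannot be told apart. The lymphoid and blood miRNAs miR-142-3p, miR-142-5p, miR-181a-5p, miR-150-5p and miR-155-5p were present in every library and summed to 36771 to 53183 CPM (counts per 1000000 of the TMM-scaled library size). Of these, miR-181a-5p was the highest (25491 to 41682 CPM), whereas miR-155-5p had 0.579 to 12.7 CPM. Of 11 miRNAs that mark other cell types, 4 (miR-205-5p, miR-133a-3p, miR-206 and miR-124-3p) had 0 counts in all libraries. Others were present, with miR-223-3p (myeloid) at 106 to 157 CPM and miR-200c-3p (epithelial) at 66.3 to 127 CPM. The liver miRNA miR-122-5p ranged from 0 to 66.8 CPM between libraries. The 11 summed to 209 to 282 CPM at 0 h, 242 to 350.1 CPM at 5 h and 259 to 300.0 CPM at 12 h, and their part in the results was not tested.

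A miRNA precursor folds into a hairpin that is cut by Drosha and then by Dicer, leaving a duplex of a 5p and a 3p arm. One arm is usually retained by an Argonaute protein, where bases 2 to 8, the seed, pair with target mRNAs, while the other is more often lost. The GNAS gene encodes the alpha subunit of the stimulatory G protein and is transcribed from several promoters that differ in parental imprinting. An antisense transcript, GNAS-AS1, is made from the paternal allele, and in mouse miR-296 and its neighbour miR-298 arise from that imprinted antisense RNA. In human endothelial cells miR-296 was described as a repressor of HGS, a protein that sorts growth factor receptors for degradation, and in mouse embryonic stem cells as a repressor of Nanog.

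The sequences of both arms, credited to RefSeq on GRCh38.p14, are shown to tell the arms apart, with the seed in capitals, followed by the hairpin with the arms in capitals.
hsa-miR-296-5p: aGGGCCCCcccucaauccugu
hsa-miR-296-3p: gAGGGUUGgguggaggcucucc
MIR296 hairpin: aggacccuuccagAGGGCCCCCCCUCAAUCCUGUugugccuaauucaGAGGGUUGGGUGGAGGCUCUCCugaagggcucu

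The hairpin spans 80 bases on the minus strand of chromosome 20 (58817615 to 58817694), with the 5p arm at 58817661 to 58817681 and the 3p arm at 58817626 to 58817647. The arms are 21 and 22 bases long and lie at bases 14 to 34 and 48 to 69 of the hairpin. RNAfold placed 18 bases of the 5p arm in pairs with the 3p arm, with a minimum free energy of -41 kcal/mol for the hairpin. The 3p arm is 50% G and 68.2% G plus C, and the 5p arm is 47.6% C and 66.7% G plus C, against a median of 47.8% G plus C over the 259 tested rows averaging 10 CPM or more that matched a RefSeq sequence, as 625 of the 701 rows did. The 5p arm holds a run of 7 C, which 2 of 2370 mature miRNAs in the RefSeq table have (0.0844%). The table held no other miRNA with the seed of either arm, nor with the same bases 2 to 7. The nearest other mature sequence was 6 edits away from the 3p arm and 5 from the 5p arm.

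GENCODE 29 on GRCh38 places MIR296 at the same positions, inside exon 1 of AL132655.2, a long non-coding RNA gene of 594 bases on the same strand whose annotated exon spans the whole gene (58817132 to 58817725). The 3′ end of MIR298, on the same strand, lies 531 bases upstream of the hairpin. That of GNAS-AS1, also on the minus strand, lies 1224 bases upstream, and GNAS itself begins 22023 bases away on the plus strand. miR-298 had 0 counts in all 9 libraries, and 3 counts over all of them would be 0.0288 CPM. In single libraries the level of 3 counts was 0.176 to 0.471 CPM, a limit for counting error alone. The map of genes around MIR296 shows this arrangement.

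**Figure D1:**
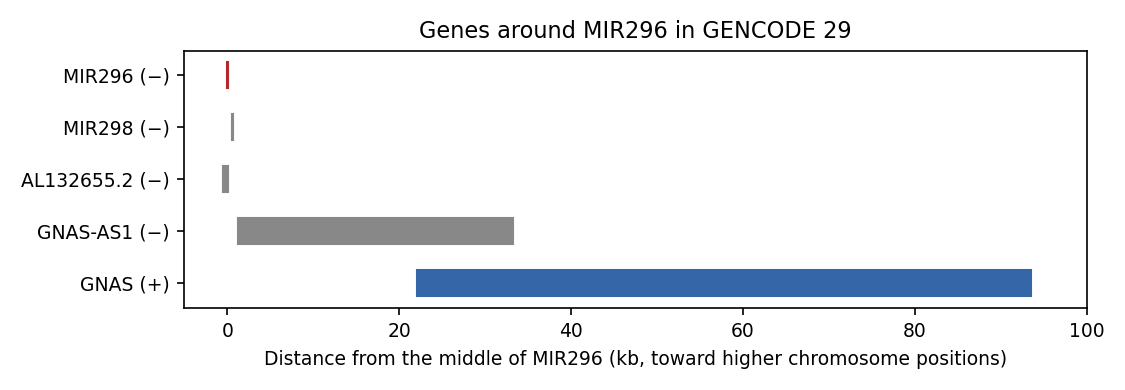
Genes around MIR296 as annotated in GENCODE 29, drawn to scale by distance in kb from the middle of the MIR296 hairpin; the strand is given after each name, red marks MIR296, grey other minus-strand genes and blue the plus strand. MIR296 lies inside AL132655.2, next to MIR298, and outside the annotated ends of GNAS-AS1 and GNAS.

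miR-296-3p, the more abundant arm, was lower at each later time. In replicates 1, 2 and 3 it had 115.5, 114.2 and 113.5 CPM at 0 h (1796, 1494 and 745 counts), 103, 80.3 and 93.9 CPM at 5 h (1099, 782 and 1601 counts) and 64.4, 65.9 and 63.6 CPM at 12 h (862, 781 and 405 counts). No library at 5 h reached the level of any at 0 h, and none at 12 h reached that of any at 5 h. The 5 h libraries all lay below those of 0 h in 28 of 701 rows (3.99%), and the 12 h libraries below those of 5 h in 55 (7.85%). CPM divide the counts of a row by the scaled size of its library, which makes them levels relative to the other miRNAs of a library. In bulk RNA, fewer cells with the miRNA and less of it in each cell cannot be told apart.

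The means for miR-296-3p were 64.6 ± 1.19 CPM at 12 h and 114 ± 1.01 CPM at 0 h (SD, n = 3 each), a decrease of 43.5%. The edgeR fit gave a log2 fold change of -0.82 (SE 0.18) for 12 h over 0 h, with a 95% interval of -1.19 to -0.45, while the median over all 701 rows was 0.01. Even the closest pair of libraries, the highest at 12 h and the lowest at 0 h, differed 1.72-fold. At 5 h the mean was 92.3 ± 11.2 CPM (SD, n = 3), and the log2 fold change was -0.31 (SE 0.17) over 0 h, with a 95% interval of -0.68 to 0.06. For 12 h over 5 h it was -0.51 (SE 0.18), with a 95% interval of -0.88 to -0.14. Per hour, the fitted change was -0.06 on the log2 scale between 0 h and 5 h and -0.07 between 5 h and 12 h. Any pair of these comparisons shares the libraries of 1 time. The intervals make no allowance for the choice of miR-296-3p by its fall, so they are a description and no test of it.

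**Figure D2:**
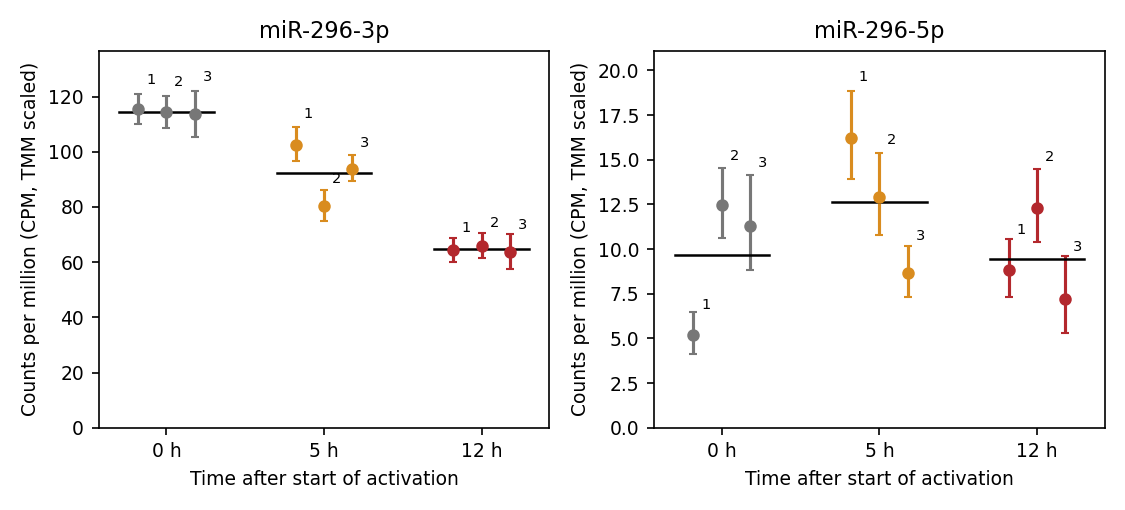
Level of miR-296-3p (left) and miR-296-5p (right) in CPM after TMM scaling at 0 h, 5 h and 12 h. Each point is 1 library, numbered by replicate, bars are exact 95% Poisson intervals for counting error only and black lines are means; the 3p arm steps down without overlap between times, whereas the 5p libraries overlap at all 3 times.

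The replicates of miR-296-3p lay close together at the ends of the course. Counting alone would give an SD of 2.61 CPM at 12 h and 3.35 CPM at 0 h, which is more than the 1.19 and 1.01 CPM observed. At 5 h the observed SD of 11.2 CPM exceeded the 2.81 CPM of counting alone, with replicate 2 the lowest. Of 53 rows within a factor of 2 of its mean level, miR-296-3p had the smallest spread between replicates (SD 0.10 on the log2 scale, against a median of 0.25). The call it was chosen by depends on this spread, so its place is a description and no support for the fall. The fit shares its estimate of spread across rows and put the biological coefficient of variation of this row at 19.3%. With all libraries of a time pooled, the ratio of 12 h to 0 h was 0.565, with an exact 95% interval of 0.536 to 0.596 that covers counting error only.

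In the comparison of 12 h with 0 h, miR-296-3p was 1 of 10 rows of 701 called (1.43%, edgeR adjusted p under 0.05) and 1 of 3 called lower (0.428%). This is the result it was chosen by and no support for its fall. The other two were miR-25-5p and miR-4521. With upper quartile factors 9 rows were called higher and 1 lower and with library totals 7 and 1, against 7 and 3 with TMM. The 12 h libraries all lay below the 0 h libraries in 35 rows (4.99%). A step down without overlap from 0 h to 5 h and again from 5 h to 12 h was found in 2 rows (0.285%), miR-296-3p and miR-4521, which was named after its values were seen. Among 52 other rows within a factor of 2 of its level, the median log2 fold change at 12 h was 0.01, and 2 rows had values as low as that of miR-296-3p or lower. This place and the step down use the values that miR-296-3p was chosen by, so they too are no support for its fall. Its rank by level among all mature miRNAs was 134, 137 and 137 in the 12 h libraries, against 114, 121 and 114 in those of 0 h. The plot of change against level sets both arms among the tested rows.

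**Figure D3:**
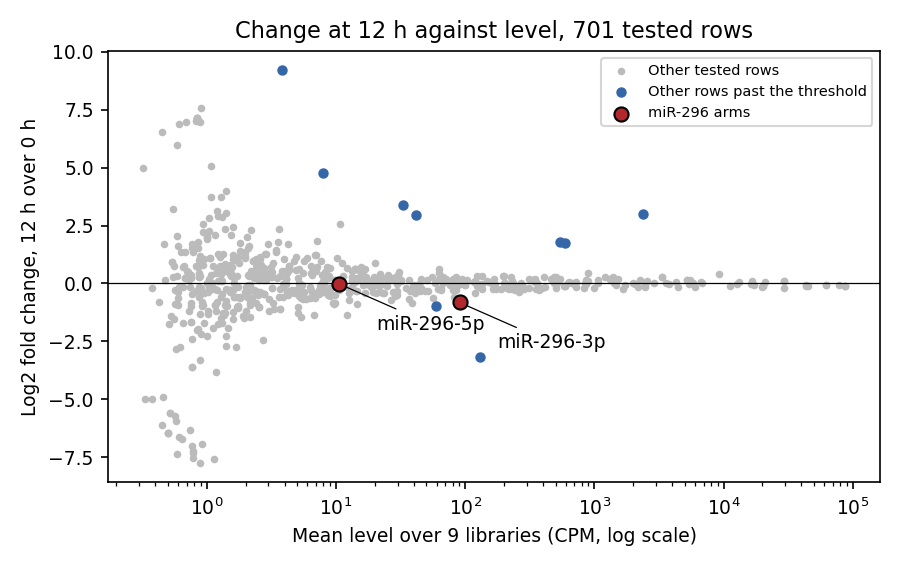
Log2 fold change of 12 h over 0 h in the edgeR fit (vertical) against mean level over 9 libraries in CPM on a log axis (horizontal), 1 point per tested row. miR-296-3p (log2 fold change -0.82, the value it was chosen by) lies below all but 2 of the 52 other rows within a factor of 2 of its level, and miR-296-5p (-0.02) lies near 0; blue points are the other rows with an adjusted p under 0.05.

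The authors' deposited log2 values, counts divided by 1 factor per library, gave the same order. There miR-296-3p had 10.34, 10.28 and 10.30 at 0 h, 10.09, 9.78 and 10.00 at 5 h and 9.47, 9.48 and 9.41 at 12 h. With library totals as the only scaling it had 119, 111 and 105 CPM at 0 h, 106, 77.6 and 98.8 CPM at 5 h and 68.3, 66.2 and 61.1 CPM at 12 h. On that scale replicate 1 of 5 h and replicate 3 of 0 h overlapped, and the 12 h libraries lay below all others. The call that the choice rests on was not made with this scaling, with upper quartile factors, with 5 h left out of the fit, without the 2 shallowest libraries or without replicate 1 of 0 h. The log2 fold change was then -0.83 to -0.67. The -0.67 came from upper quartile factors, which also put the median of all rows at 0.17, and it was -0.82 with TMM, where that median was 0.01.

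Other rows as rich in G and C had a median change below 0. Among the 12 other rows averaging 10 CPM or more and holding at least 68.2% G plus C, the median log2 fold change at 12 h over 0 h was -0.24 and 9 of 12 lay below 0, against a median of 0.01 over all 259 rows at that level. At 5 h over 0 h the medians were -0.20 for the 12 and 0.01 for the 259. At 12 h, 0 of the 12 were as low as miR-296-3p. The part of base composition in its fall was not tested.

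miR-296-5p was the minor arm and varied more. In replicates 1, 2 and 3 it had 5.21, 12.5 and 11.3 CPM at 0 h (81, 163 and 74 counts), 16.2, 12.9 and 8.68 CPM at 5 h (174, 126 and 148 counts) and 8.81, 12.3 and 7.22 CPM at 12 h (118, 146 and 46 counts). The 3 times overlapped, and the lowest library of all was replicate 1 of 0 h. Its spread exceeded that of counting, with an SD of 3.89 CPM at 0 h, 3.79 CPM at 5 h and 2.61 CPM at 12 h, where counting alone would give 0.940, 1.01 and 1.02 CPM. Its SD of 0.52 on the log2 scale was close to the median of 0.55 over the 122 rows within a factor of 2 of its level.

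The means of miR-296-5p were 9.65 ± 3.89 CPM at 0 h, 12.6 ± 3.79 CPM at 5 h and 9.45 ± 2.61 CPM at 12 h (SD, n = 3 each). The log2 fold change of 5 h over 0 h was 0.39 (SE 0.43; 95% interval -0.52 to 1.30) and did not pass the edgeR quasi-likelihood test (Benjamini-Hochberg adjusted p = 0.996), in which 11 of 701 rows did (1.57%). Without replicate 1 of 0 h or replicate 1 of 5 h it was 0.11 or 0.12. For 12 h over 5 h it was -0.41 (SE 0.43; 95% interval -1.32 to 0.50; edgeR adjusted p = 1), a comparison in which 4 of 701 rows passed (0.571%). These were miR-4521, miR-92a-1-5p, miR-222-5p and miR-146a-5p, named after their values were seen. Without replicate 1 of 5 h the change of miR-296-5p was -0.16. For 12 h over 0 h, given without a test, it was -0.02 (SE 0.43; 95% interval -0.93 to 0.89), and -0.34 (without replicate 1 of 0 h) to 0.25 (without the 2 shallowest libraries) over the 21 alternatives. That interval includes the fall of the 3p arm, so these data do not show that the 5p arm stayed level. The 0.39 and the -0.41 rest on the same 5 h libraries.

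The balance of the arms was read within each library, where the scaling cancels. The 5p arm gave 4.32%, 9.84% and 9.04% of the arm counts in the 0 h libraries, 13.7%, 13.9% and 8.46% in the 5 h libraries and 12.0%, 15.7% and 10.2% in the 12 h libraries. Exact 95% binomial intervals were widest in replicate 3 of 12 h (7.56% to 13.4%) and ran from 3.44% to 5.34% in replicate 1 of 0 h. All 12 h libraries lay above all 0 h libraries, whereas replicate 3 of 5 h lay within the range of 0 h. The closest pair, replicate 3 of 12 h and replicate 2 of 0 h (8.45% to 11.4%), had overlapping intervals. Of 55 precursors with both arms at a mean of 10 CPM or more, 11 (20%) had arm ratios without overlap between 12 h and 0 h. The mean share (SD, n = 3 each) was 7.73% ± 2.98 at 0 h, 12.0% ± 3.07 at 5 h and 12.7% ± 2.83 at 12 h. Both arms together held 124 ± 3.06 CPM at 0 h, 105 ± 12.9 CPM at 5 h and 74.1 ± 3.79 CPM at 12 h.

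**Figure D4:**
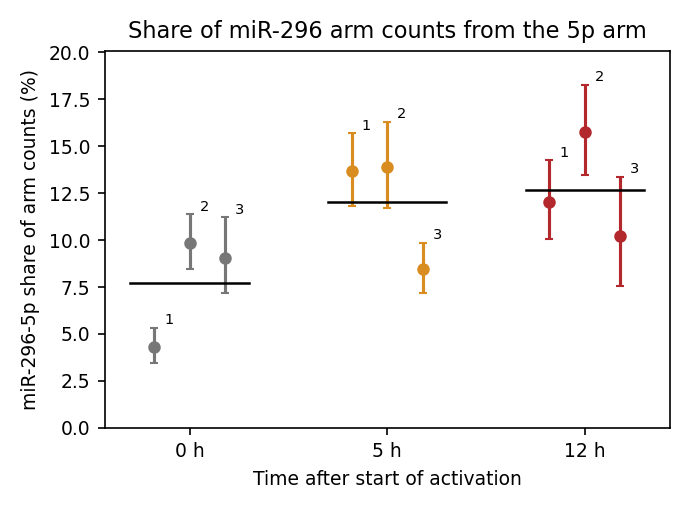
Percentage of the counts of both miR-296 arms that came from the 5p arm in each library at 0 h, 5 h and 12 h. Points are libraries numbered by replicate, bars exact 95% binomial intervals for counting error only and black lines means. The 12 h libraries (10.2% to 15.7%) lie above those of 0 h (4.32% to 9.84%), although the intervals of the closest pair overlap. Arm ratios did not overlap between these times in 11 of 55 precursors (20%).

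On the log2 scale the ratio of 3p to 5p counts (0.5 added to each; SD, n = 3 each) averaged 3.66 ± 0.70 in the 0 h libraries, 2.91 ± 0.46 in those of 5 h and 2.80 ± 0.36 in those of 12 h. The difference of 12 h from 0 h was -0.86 and that of 5 h from 0 h -0.75. Both rest in part on replicate 1 of 0 h, without which they were -0.46 and -0.35, and no test is given because they use the values of the 3p arm. Of 55 precursors with both arms at a mean of 10 CPM or more, 5 changed as much as miR-296 or more at 12 h, in either direction and with miR-296 itself among the 5, and the median size of the change was 0.29. The other four were miR-92a-2, miR-21, miR-132 and miR-25, named after their values were seen. At 5 h, 7 of the 55 did, again counting miR-296. The ratio of miR-296 also varied more between replicates than most, with a pooled SD of 0.52 against a median of 0.38. Of the 55, 11 had an SD as large or larger, miR-296 included, and its 5p arm averaged 10.6 CPM, close to the bar of 10. The groups of 12 h and 0 h did not overlap in 11 of the 55 (20%), miR-296 among them. Those of 5 h and 0 h did not overlap in 12 (21.8%), without it. The place of miR-296 among the 55 uses the values of the 3p arm, which was chosen by its fall. It is therefore no support for a shift between the arms. The ordered plot of arm ratios places miR-296 beside the others.

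**Figure D5:**
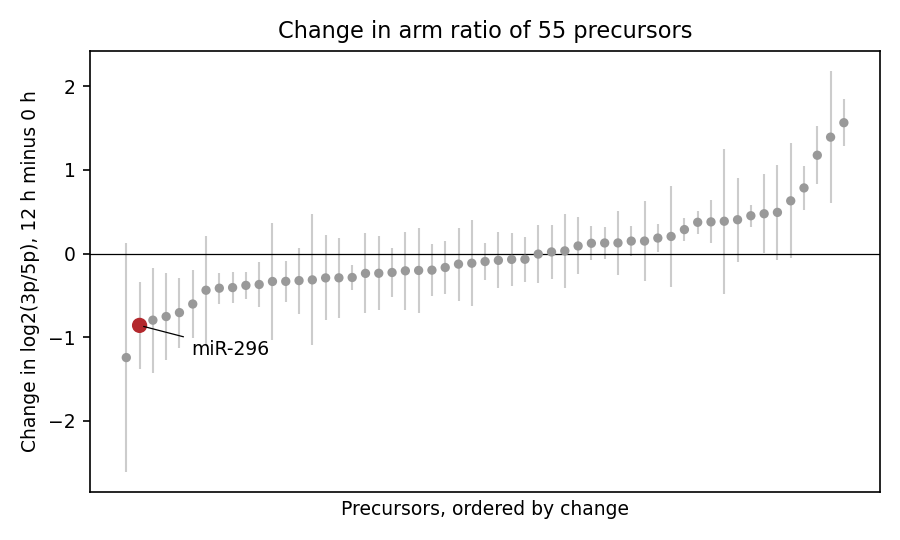
Change of the log2 ratio of 3p to 5p counts, 12 h minus 0 h, for 55 precursors with both arms at a mean of 10 CPM or more, ordered by the change. Bars show the SD between replicate libraries, pooled over the 3 times. miR-296 (red, -0.86, which includes the fall it was chosen by) has the second lowest value, and most precursors lie near 0.

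The patterns most like that of miR-296-3p were sought among 244 other miRNAs averaging 10 CPM or more, by the root mean square difference of log2 CPM over the 9 libraries after each was centred on its own mean. The closest were miR-940 (0.22), miR-149-5p (0.22), miR-25-5p (0.22), miR-20b-3p (0.23) and miR-503-5p (0.25), whereas a flat profile would differ by 0.35. miR-940 had 19.9 ± 1.88 CPM at 12 h, against 32.6 ± 7.35 CPM at 0 h (log2 fold change -0.72). miR-25-5p, whose precursor sits in the miR-106b cluster, had 38.7 ± 9.05 CPM at 12 h, against 76.9 ± 10.6 CPM at 0 h (-0.99). The log2 fold changes of miR-149-5p, miR-20b-3p and miR-503-5p at 12 h over 0 h were -0.41, -0.41 and -0.34. No p is given for these, since they were picked for their likeness to the 3p arm. By the same measure miR-296-5p ranked 202 of 244 in likeness to the 3p arm (0.57). Spread between replicates enters this distance, and it was larger for the 5p arm (SD 0.52 on the log2 scale) than for the 3p arm (0.10). The rank therefore does not show that the arms took different courses.

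For miR-296-5p the closest were miR-550a-5p (0.32), miR-550a-3-5p (0.32), miR-30b-3p (0.33), miR-942-3p (0.33) and miR-22-3p (0.36), against 0.47 for a flat profile. The first 2 are near-identical copies whose reads the counting could share. miR-550a-5p had 25.2 ± 3.37 CPM at 0 h, 36.1 ± 2.78 CPM at 5 h and 28.8 ± 4.66 CPM at 12 h. miR-22-3p, with 185 ± 36.1 CPM at 0 h, 228 ± 12.6 CPM at 5 h and 187 ± 22.7 CPM at 12 h, was the most abundant of the 5. A flat profile was farther from the 5p arm than 74 of the 244 miRNAs were, and farther from the 3p arm than 50.

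miRNAs of other imprinted loci were at low levels. Of 162 mature miRNAs listed for the GNAS, MEST, IGF2/H19, 14q32 and 19q13 regions, other than miR-296, 23 had any count and 3 were tested. These were miR-335-5p, from an intron of MEST, with 2.30 ± 0.778 CPM at 0 h, 0.880 ± 0.911 CPM at 5 h and 2.06 ± 0.559 CPM at 12 h, together with miR-483-5p, from an intron of IGF2, and miR-127-3p, from the 14q32 cluster, with means of 1.04 and 0.451 CPM. In the edgeR fit 0 of the 3 passed in any of the 3 comparisons, 0 had an unadjusted p under 0.05, and DESeq2 and limma-voom called 0. Over all 701 rows, 1.57% were called at 5 h over 0 h, 1.43% at 12 h over 0 h and 0.571% at 12 h over 5 h, and 5.99%, 7.28% and 6.13% had an unadjusted p under 0.05, so a count of 0 among 3 is near the background. The fit gave log2 fold changes at 12 h over 0 h of -0.16 for miR-335-5p and 0.20 for miR-483-5p. miR-127-3p was at 0 in all 0 h libraries. At a mean of 90.4 CPM, miR-296-3p was 51.7 times as abundant over the 9 libraries as miR-335-5p, the highest of the list.

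Chromosome 20 gave 56 other mature miRNAs by the RefSeq positions, of which 21 had any count and 11 were tested. In the edgeR fit 0 of the 11 passed in any comparison, 1 (miR-103a-3p at 12 h over 0 h) had an unadjusted p under 0.05, and DESeq2 and limma-voom called 0. These counts too are near the shares over all rows, 1.43% called and 7.28% with an unadjusted p under 0.05 at 12 h over 0 h. Their median log2 fold change at 12 h over 0 h was 0.40, against 0.01 over all rows, but it is the value of miR-548o-3p, which averaged 0.721 CPM (SE 2.61). It was the same with miR-3617-5p, at 0 in all 0 h libraries, set to its bound. Only 2 of the 11 averaged 10 CPM or more, miR-103a-3p and miR-941, at 0.26 and 0.24. The most abundant was miR-103a-3p, with 3005 ± 222 CPM at 0 h, 3378 ± 58.5 CPM at 5 h and 3589 ± 319 CPM at 12 h (12 h over 0 h, edgeR adjusted p = 0.661), which a precursor on another chromosome also yields. miR-941 had 23.2 ± 9.17 CPM at 0 h, 34.2 ± 3.64 CPM at 5 h and 27.3 ± 8.94 CPM at 12 h. miR-1292-5p and miR-3194-5p averaged 8.02 and 4.19 CPM over the 9 libraries.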

How the data were processed

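Small RNA libraries were made with RealSeq kits from total RNA of Jurkat clone E6-1, per the labels. The authors deposited raw counts, 1 row for each precursor and mature miRNA. The deposited log2 table of 430 rows holds log2(count divided by 1 library factor, plus 1), to within 5.05e-09, and was an alternative here. The submitters' processing notes name GRCh38.p13 and DESeq2; the aligner and counter were not given in the sources used here.

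Of 1214 rows above 0, 701 passed filterByExpr (minimum count 10, minimum total 15). They were scaled by TMM and fitted in edgeR 4.0.16 (R 4.3.3) by quasi-likelihood, 1 mean per time over 9 libraries. Benjamini-Hochberg adjustment covered 701 rows, with a threshold of 0.05. The 701 rows hold 626 mature names, so a miRNA with several precursors can count more than once in shares over rows and in library sizes. With 1 row per mature miRNA the log2 fold change of miR-296-3p at 12 h over 0 h was -0.82. The edgeR fit was also run on simulated counts with changes put in at 12 h alone. Those changes were larger than any of the miR-296 arms, so the run does not test changes of their size. Libraries of 6631839 to 16207031 counts put 3 counts at 0.176 to 0.471 CPM, and intervals on counts cover counting error only. No 2 replicates agreed within sampling noise (chi-square per degree of freedom 70.4 or more). Sequences were taken from RefSeq and folded with RNAfold 2.7.2.

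The members and lists were chosen with earlier results of these data known. By rule the text names both arms, miR-298, the cell type markers, the 5 miRNAs most like each arm and up to 4 of the most abundant members of each list. Others, such as miR-4521, miR-92a-2 and miR-548o-3p, were named after their values were seen. Alternatives changed the scaling, filter, tool, libraries and replicate block. No batch or date is named in the labels.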

Additional observations from a re-analysis of the deposited data

How the results depend on the processing

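Across 21 alternatives the log2 fold change of miR-296-3p at 12 h over 0 h lay between -0.87 and -0.67. With upper quartile factors it was -0.67 at 12 h over 0 h and -0.35 at 12 h over 5 h. Leaving out 1 replicate gave -0.43 (without replicate 1 of 5 h) to -0.27 at 5 h over 0 h. miR-296-5p passed in no alternative at 5 h over 0 h or 12 h over 5 h. The difference of the arm ratio between 12 h and 5 h changed sign when replicate 3 of 5 h (0.16) or replicate 2 of 12 h (0.09) was left out.

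The count of rows called at 5 h over 0 h was 11, but 17 without a filter and 5 with limma on the deposited log2 values. At 12 h over 0 h it was 10, but 6 with the 2 groups fitted alone and 6 with limma on the deposited values. At 12 h over 5 h it was 4, but 12 without a filter, and 3 to 10 when 1 replicate was left out, with 10 reached without replicate 1 of 12 h. The causes were not tested.

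With the replicate number as a block, 11 rows were called at 12 h over 5 h. The blocked log2 fold changes of miR-296-3p were -0.31 at 5 h over 0 h, -0.82 at 12 h over 0 h and -0.51 at 12 h over 5 h, and those of miR-296-5p were 0.41, -0.03 and -0.44. The labels do not say whether libraries of the same number are paired. Of 9 correlations between such libraries 4 were over 0.1 (-0.18 to 0.25), which cannot settle it.

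Nothing in the labels says whether the biological replicates came from separate cultures, so the p-values cannot be taken to hold beyond these samples. The 5p arm had 46 to 174 counts per library and its replicates differed by more than counting error.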
